A study of Mus musculus with 18 samples.

Results

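The genes described here make cholesterol and fatty acids or control their synthesis. They were chosen by symbol: 31 genes were named, and 30 of them had an array probe set annotated to that symbol alone, out of 18193 genes with such a probe set. Acat2, a thiolase at the head of the sterol pathway, had none and was not analysed here. The 30 measured genes comprised 17 sterol enzymes, 5 regulators or transporters (Srebf1, Srebf2, Scap, Insig1 and Stard4) and 8 fatty acid synthesis genes.

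Expression was measured on Affymetrix arrays in 6 mouse pluripotent cell lines. Each line had 3 arrays, described by the submitters as biological replicates without mention of separate cultures, so p-values measure only the spread between these arrays, which may be technical. The embryonic stem (ES) lines, derived from embryos, were R1 (strain label 129X1/SvJ x 129S1 F1) and ESC2 (B6 x D2 F1). The induced pluripotent stem (iPS) lines, reprogrammed from mouse embryonic fibroblasts, were IP14D-1, IP20D-3 and IP36D-3 (all B6 x D2 F1) and IP14D-101 (B6 x 129S2 F1). Each line is 1 culture line, so a trait of a line and a trait of its cell type cannot be told apart from that line alone. All lines grew with LIF at 1000 units per ml on feeder fibroblasts treated with mitomycin C. The medium held 15% fetal bovine serum or 20% serum replacement. Which medium each line received is not stated, so medium and line cannot be told apart.

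Cells make cholesterol from acetyl-CoA through mevalonate, squalene and lanosterol. The transcription factors encoded by Srebf2 and Srebf1 are held in the endoplasmic reticulum by the SCAP and INSIG proteins while sterols are plentiful. When sterols run low, SCAP carries them to the Golgi, where they are cut free, enter the nucleus and switch on the sterol enzymes (mainly SREBP-2) and the fatty acid enzymes (mainly SREBP-1). INSIG1 is itself a product of this programme, and dividing cells draw on both pathways for new membrane.

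Promoter windows from RefSeq (GRCm38.p6, 250 bases before to 50 after each transcript start, C57BL/6J reference) were found for 24 of the 31 named genes, in 30 windows. The 6 below were chosen after the values were seen: Hmgcs1, Idi1, Insig1 and Fasn were lower in IP20D-3, Srebf2 was higher in R1 and IP14D-101, and Ebp went the opposite way to most sterol enzymes in IP20D-3. Capitals mark 3 motifs searched on both strands: TCACNCNAC, a relaxed form of the sterol regulatory element bound by SREBP, CCAAT, bound by NF-Y, and GGGCGG, bound by Sp1-like factors. Neighbouring matches may touch or overlap.
Hmgcs1 (chr13:119690101-119690400, plus strand): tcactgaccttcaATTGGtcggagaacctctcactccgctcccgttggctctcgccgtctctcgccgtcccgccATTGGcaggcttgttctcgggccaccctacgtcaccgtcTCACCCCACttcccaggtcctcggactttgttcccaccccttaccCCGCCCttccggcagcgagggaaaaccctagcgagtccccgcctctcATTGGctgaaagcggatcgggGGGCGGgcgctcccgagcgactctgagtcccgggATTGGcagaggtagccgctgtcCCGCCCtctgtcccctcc
Idi1 (chr13:8885356-8885655, plus strand): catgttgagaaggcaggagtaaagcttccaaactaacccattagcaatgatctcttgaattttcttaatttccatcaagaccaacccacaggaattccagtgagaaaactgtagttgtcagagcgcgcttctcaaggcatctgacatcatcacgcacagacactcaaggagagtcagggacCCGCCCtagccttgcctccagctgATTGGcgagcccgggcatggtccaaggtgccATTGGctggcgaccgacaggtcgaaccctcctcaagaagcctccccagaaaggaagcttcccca
Insig1 (chr5:28071162-28071461, plus strand): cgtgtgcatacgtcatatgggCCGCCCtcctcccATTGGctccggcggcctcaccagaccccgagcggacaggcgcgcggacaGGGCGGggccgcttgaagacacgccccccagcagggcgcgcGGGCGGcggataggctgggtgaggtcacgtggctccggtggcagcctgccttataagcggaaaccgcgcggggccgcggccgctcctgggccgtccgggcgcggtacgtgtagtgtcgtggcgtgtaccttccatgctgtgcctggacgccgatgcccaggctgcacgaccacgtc
Fasn (chr11:120824498-120824797, minus strand): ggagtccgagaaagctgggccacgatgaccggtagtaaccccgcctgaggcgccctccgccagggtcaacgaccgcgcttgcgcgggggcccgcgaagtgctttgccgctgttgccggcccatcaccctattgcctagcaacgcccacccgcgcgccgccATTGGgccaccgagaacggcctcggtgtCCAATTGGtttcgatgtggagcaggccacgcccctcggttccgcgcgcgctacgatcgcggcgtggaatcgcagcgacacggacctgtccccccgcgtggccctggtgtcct
Srebf2 (chr15:82147019-82147318, plus strand): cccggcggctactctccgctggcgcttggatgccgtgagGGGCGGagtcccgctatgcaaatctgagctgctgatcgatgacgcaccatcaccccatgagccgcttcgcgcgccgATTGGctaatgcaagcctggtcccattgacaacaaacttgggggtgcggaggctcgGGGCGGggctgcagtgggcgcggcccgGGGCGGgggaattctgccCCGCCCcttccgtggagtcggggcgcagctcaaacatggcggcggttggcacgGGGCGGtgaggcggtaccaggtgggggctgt
Ebp (chrX:8193463-8193762, minus strand): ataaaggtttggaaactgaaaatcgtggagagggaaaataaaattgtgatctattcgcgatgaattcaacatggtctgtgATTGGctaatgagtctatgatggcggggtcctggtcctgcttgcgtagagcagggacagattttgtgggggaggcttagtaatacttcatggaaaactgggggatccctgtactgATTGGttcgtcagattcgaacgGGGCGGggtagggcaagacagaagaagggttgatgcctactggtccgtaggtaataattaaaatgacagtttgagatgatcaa

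The sterol motif lay in 2 of the 30 windows, those of Hmgcs1 and Nsdhl, and in 2.7% of all 32851 windows of this length. In Hmgcs1 it lay at position -137 relative to the start. CCAAT lay in 20 of the 30 windows (66.7%) against 37.4% of all windows, and GGGCGG in 23 (76.7%) against 35.7%. A match is a description of the letters and not a binding site, and a window without a match says nothing about the factor.

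All values below are log2 of the deposited intensities. Levels of different genes cannot be compared, because each probe set has its own brightness. A gene was called changed when limma's moderated test gave a Benjamini-Hochberg adjusted p under 0.05 over all 18193 genes and the log2 difference was at least 1. The pluripotency factors Pou5f1 (line means 12.12 to 12.64), Nanog (11.24 to 11.81) and Sox2 (11.58 to 12.18) were bright in all 6 lines. Esrrb, Zfp42, Tfcp2l1, Utf1 and Fgf4 were lowest in ESC2, with ranges of line means of 2.19, 2.13, 1.93, 1.51 and 1.17. Called higher than in ESC2 were 5 of 12 pluripotency markers in IP14D-101 (4.67% of all genes), 4 in R1 (4.38%) and 3 in IP20D-3 (5.22%). IP14D-1 (2.08%) and IP36D-3 (1.91%) had 1 each. Their part in the lipid gene differences was not tested. Within a line, the mean correlation between arrays was 0.995 to 0.998 (Pearson, across genes, which are not independent replicates). The beta-actin signal at the 3' end over that at the 5' end was 1.48 to 1.56 in ESC2 and 1.12 to 1.31 in the other lines. Within that span IP14D-1 had 1.25 to 1.29, IP36D-3 had 1.24 to 1.29 and IP20D-3 had 1.26 to 1.31. The summed linear intensity of 19 fibroblast markers was 1939 to 2089 in IP14D-1, 1299 to 1434 in ESC2, 1130 to 1235 in R1, 717 to 794 in IP14D-101, 543 to 592 in IP36D-3 and 426 to 475 in IP20D-3. Acta2 was the brightest marker in every line and weighs most in this sum. Feeder RNA can contribute to any gene in these bulk samples, and fewer cells of a type cannot be told apart from less RNA per cell. The summed intensity of 12 primitive and visceral endoderm markers was 2470 to 2748 in IP14D-101 and 367 to 604 in the other lines.

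Sterol and fatty acid genes differed widely among the lines. Of the 30 members, 23 differed among the 6 line means by limma's F test with a range of at least 1, against 25.9% of all genes. They were 12 of 17 sterol enzymes, 4 of 5 regulators or transporters and 7 of 8 fatty acid genes. The 7 with narrower ranges were Mvk (0.54), Elovl6 (0.69), Pmvk (0.75), Cyp51 (0.85), Stard4 (0.92), Nsdhl (0.94) and Lss (0.99). For Cyp51 and Stard4 this depended on the probe set. Line means of another bright probe set ran from 6.49 to 8.18 for Cyp51 and from 6.61 to 7.93 for Stard4. The widest were Dhcr7 (2.67), Idi1 (2.30), Hmgcs1 (2.12), Scd2 (2.02) and Fads2 (1.80). IP14D-1 and IP20D-3 were the lowest 2 of the 6 line means for 18 of the 30 members, an order seen for 8.82% of all genes. This order was looked at after the values were seen, and earlier results of these data had shown part of it. It held for 12 of 17 sterol enzymes, for Srebf1 and Stard4, and for Fasn, Scd1, Scd2 and Fads2. For Hmgcs1 and Idi1 it depended on the probe set, as some other bright ones put IP36D-3 below IP14D-1.

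**Figure D1:**
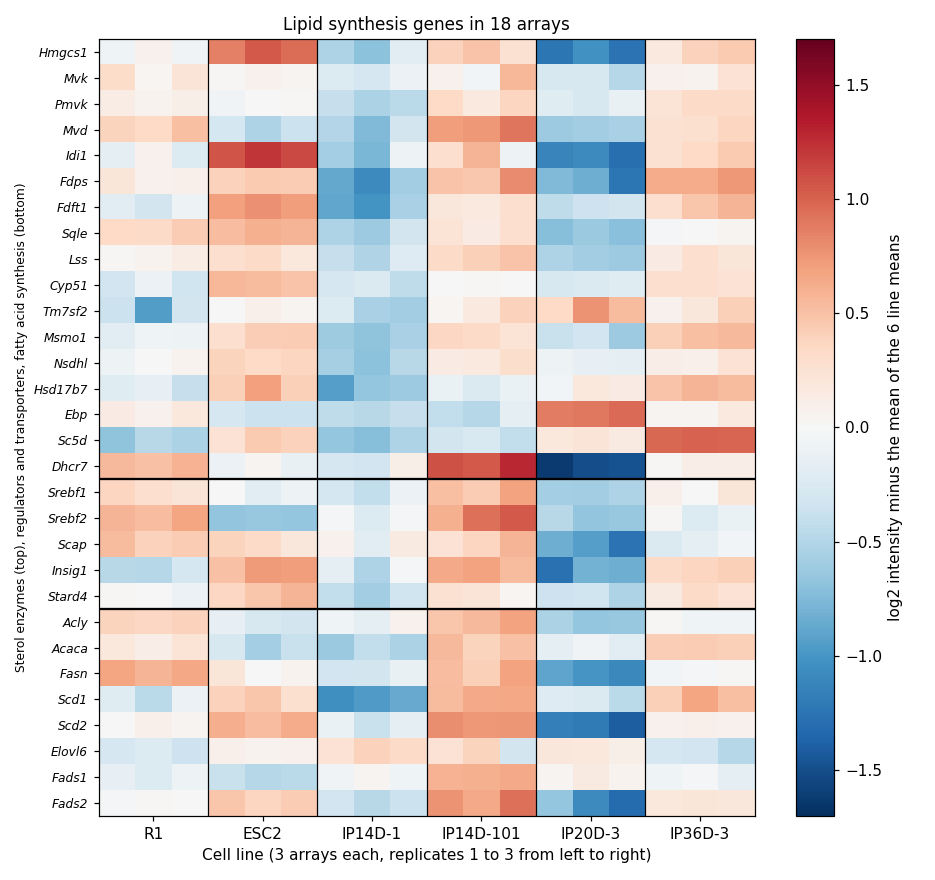
Log2 intensity of the 30 measured genes (rows) in 18 arrays (columns, 3 for each line), minus the mean of the gene's 6 line means, with red above and blue below that mean. Most sterol enzymes are blue in IP14D-1 and IP20D-3, while Ebp and Tm7sf2 are red in IP20D-3.

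The mean centred level of the 17 sterol enzymes, each taken relative to its own mean over lines, was -0.51 ± 0.13 (SD, n = 3 arrays) in IP14D-1 and -0.39 ± 0.04 in IP20D-3. It was 0.33 ± 0.07 in IP36D-3, 0.32 ± 0.04 in ESC2, 0.26 ± 0.05 in IP14D-101 and -0.01 ± 0.02 in R1. The arrays of IP14D-1 and IP20D-3 overlapped each other (-0.62 to -0.37 and -0.43 to -0.34) and lay below those of the other 4 lines (-0.03 to 0.39). For the 8 fatty acid genes the order differed, with IP14D-101 highest at 0.56 ± 0.01 and IP20D-3 lowest at -0.51 ± 0.10. IP14D-1 was at -0.26 ± 0.04, ESC2 at 0.06 ± 0.06, R1 at 0.07 ± 0.04 and IP36D-3 at 0.09 ± 0.03. The arrays of ESC2, R1 and IP36D-3 overlapped in that group. The 5 regulators and transporters were highest in IP14D-101 (0.52 ± 0.06) and lowest in IP20D-3 (-0.71 ± 0.04). Over the 6 lines, which share all their genes' arrays, the group means of sterol enzymes and fatty acid genes had a Pearson r of 0.78, given as a description.

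Members differed in how closely they followed the sterol enzymes. Over the 6 lines, Msmo1, a sterol methyl oxidase, correlated at r = 0.99 with the mean of the other 16 sterol enzymes, Fdps at 0.97, Fdft1 at 0.93 and Lss at 0.92. Stard4, a cytosolic cholesterol carrier, correlated at 0.97 and Insig1 at 0.82 with the mean of all 17. The fatty acid desaturase Scd1 reached 0.93, above Srebf1 (0.67), Scap (0.53) and Srebf2 (0.22). Ebp (-0.40), Elovl6 (-0.58), Fads1 (-0.05) and Tm7sf2 (0.14) were near 0 or negative. These are descriptions over 6 points that share arrays and scaling.

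The mevalonate arm makes the isoprenoid units of sterols. Hmgcs1, the synthase that forms HMG-CoA, read 9.38, 9.58 and 9.35 in IP20D-3, 10.08, 9.91 and 10.42 in IP14D-1, 10.77, 10.99 and 11.05 in IP36D-3, 11.46, 11.65 and 11.56 in ESC2, 10.99, 11.09 and 10.86 in IP14D-101 and 10.54, 10.67 and 10.55 in R1. IP20D-3 lay lowest with no overlap with any line, IP14D-1 came next, and ESC2 lay highest with no overlap. The place of IP14D-1 depended on the probe set. Others of like brightness had IP36D-3 (10.21 and 10.415) below or level with IP14D-1 (10.415 and 10.43), while a dimmer one kept IP14D-1 (8.54) second lowest. Idi1, which isomerises the isoprene unit, read 8.41, 8.46 and 8.26 in IP20D-3, 8.96, 8.77 and 9.45 in IP14D-1, 9.80, 9.88 and 9.98 in IP36D-3, 10.61, 10.76 and 10.66 in ESC2, 9.82, 10.11 and 9.45 in IP14D-101 and 9.39, 9.61 and 9.30 in R1. Its lowest and highest lines were again IP20D-3 and ESC2, and the arrays of R1 overlapped those of IP14D-1 and IP14D-101. The second Idi1 probe set put IP14D-1 (7.82 ± 0.30) above R1 (7.55 ± 0.30) and IP36D-3 (7.41 ± 0.26). Fdps, which joins the units to farnesyl diphosphate, read 9.35, 9.27 and 8.87 in IP20D-3, 9.23, 9.01 and 9.50 in IP14D-1, 10.72, 10.73 and 10.83 in IP36D-3, 10.48, 10.54 and 10.53 in ESC2, 10.58, 10.55 and 10.90 in IP14D-101 and 10.30, 10.17 and 10.19 in R1. For Fdps both IP20D-3 and IP14D-1 lay below all arrays of the other 4 lines and overlapped each other. Mvd, the decarboxylase, was 8.13 ± 0.11 (SD, n = 3) in IP14D-101, 7.76 ± 0.09 in R1 and 7.65 ± 0.06 in IP36D-3, against 6.95 ± 0.12 in ESC2, 6.83 ± 0.22 in IP14D-1 and 6.76 ± 0.03 in IP20D-3. A second Mvd probe set of like brightness set ESC2 (7.25 ± 0.13) closer to R1 (7.38 ± 0.11). It read 7.91 in IP14D-101, 7.70 in IP36D-3, 6.80 in IP14D-1 and 6.75 in IP20D-3. The kinases Mvk (7.01 to 7.55 over line means) and Pmvk (7.40 to 8.15) had narrow ranges.

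The steps from squalene to lanosterol are run by Fdft1, Sqle and Lss. Fdft1, squalene synthase, read 8.93, 8.998 and 9.04 in IP20D-3, 8.47, 8.34 and 8.80 in IP14D-1, 9.64, 9.82 and 9.93 in IP36D-3, 10.05, 10.13 and 10.06 in ESC2, 9.54, 9.52 and 9.63 in IP14D-101 and 9.17, 9.04 and 9.26 in R1. IP14D-1 lay lowest without overlap, followed by IP20D-3, whose arrays reached those of R1, and ESC2 lay highest. A second bright Fdft1 probe set showed smaller differences, at 8.999 in IP14D-1, 8.62 in IP20D-3 and 9.53 in ESC2, with IP20D-3 lowest. Sqle, the epoxidase that commits squalene to sterols, was 8.85 ± 0.055 in IP20D-3 and 9.05 ± 0.15 in IP14D-1 against 9.55 ± 0.03 to 10.11 ± 0.04 in the other 4 lines. Lss, the cyclase, was 7.59 ± 0.05 and 7.80 ± 0.14 in the same lines, against 8.24 ± 0.05 to 8.58 ± 0.08.

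From lanosterol to cholesterol the enzymes parted. Dhcr7, which reduces 7-dehydrocholesterol to cholesterol, read 6.39, 6.50 and 6.53 in IP20D-3, 7.72, 7.68 and 8.11 in IP14D-1, 8.02, 8.12 and 8.12 in IP36D-3, 7.90, 8.06 and 7.88 in ESC2, 9.10, 9.05 and 9.28 in IP14D-101 and 8.56, 8.51 and 8.60 in R1. IP20D-3 lay more than a log2 unit below every other line, and IP14D-101 lay above all. Sc5d, the sterol desaturase that acts before Dhcr7, read 7.99, 8.03 and 7.97 in IP20D-3, 7.15, 7.09 and 7.29 in IP14D-1, 8.79, 8.82 and 8.81 in IP36D-3, 8.06, 8.26 and 8.21 in ESC2, 7.51, 7.57 and 7.40 in IP14D-101 and 7.14, 7.35 and 7.28 in R1. IP36D-3 was highest and ESC2 and IP20D-3 came next without overlap with each other, while IP14D-1 and R1 overlapped at the bottom. Sc5d was thus above 3 other lines in IP20D-3, where Dhcr7 was lowest. Ebp, the sterol isomerase, was highest in IP20D-3 at 9.51 ± 0.05 against 8.16 ± 0.04 (IP14D-1) to 8.73 ± 0.055 (R1) in the other lines. Tm7sf2, a sterol reductase whose step Lbr also serves, was 7.22 ± 0.21 in IP20D-3 and 6.13 ± 0.35 in R1. Hsd17b7, a ketosteroid reductase of this arm, was lowest in IP14D-1 (5.75 ± 0.17) and highest in IP36D-3 (7.03 ± 0.05) and ESC2 (7.003 ± 0.17), and its IP14D-1 value is near the medians of the arrays (5.80 to 6.02 over genes). Msmo1 (8.91 to 10.01), Nsdhl (8.09 to 9.03) and the lanosterol demethylase Cyp51 (7.89 to 8.74) had their lowest line mean in IP14D-1. For Cyp51 the IP14D-1 arrays overlapped those of R1, and its second bright probe set was lowest in R1 (6.49 ± 0.14).

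Among the regulators, transcript levels did not share 1 order. Srebf2, which encodes the main activator of sterol enzymes, read 7.999, 7.80 and 7.82 in IP20D-3, 8.44, 8.23 and 8.45 in IP14D-1, 8.49, 8.23 and 8.35 in IP36D-3, 7.79, 7.83 and 7.80 in ESC2, 9.07, 9.40 and 9.51 in IP14D-101 and 9.04, 8.996 and 9.14 in R1. R1 and IP14D-101 lay above all arrays of the 4 lines with the B6 x D2 label, and ESC2 lay lowest beside IP20D-3. Its second probe set gave the same order at the top (9.17 ± 0.13 in R1 and 9.46 ± 0.13 in IP14D-101, against 7.34 ± 0.02 to 8.48 ± 0.12), with IP20D-3 lowest and ESC2 next. The sterol enzymes were high in ESC2, where Srebf2 was low on both probe sets. Srebf1, which encodes the relative that favours fatty acid genes, read 7.11, 7.10 and 7.16 in IP20D-3, 7.40, 7.28 and 7.59 in IP14D-1, 7.78, 7.70 and 7.90 in IP36D-3, 7.68, 7.495 and 7.60 in ESC2, 8.20, 8.13 and 8.37 in IP14D-101 and 8.06, 7.98 and 7.91 in R1. IP20D-3 was lowest and IP14D-101 highest, each without overlap with another line. Scap, the escort protein, read 7.53, 7.42 and 7.10 in IP20D-3, 8.43, 8.16 and 8.52 in IP14D-1, 8.11, 8.21 and 8.31 in IP36D-3, 8.74, 8.68 and 8.55 in ESC2, 8.60, 8.72 and 8.93 in IP14D-101 and 8.89, 8.75 and 8.79 in R1. Only IP20D-3 stood apart here, below every other array. Insig1, the retention protein, read 5.92, 6.38 and 6.36 in IP20D-3, 7.02, 6.67 and 7.16 in IP14D-1, 7.51, 7.55 and 7.59 in IP36D-3, 7.68, 7.91 and 7.91 in ESC2, 7.83, 7.88 and 7.73 in IP14D-101 and 6.72, 6.70 and 6.88 in R1. ESC2 and IP14D-101 overlapped at the top, IP36D-3 lay just below them, and R1, IP14D-1 and IP20D-3 were lower.

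Fatty acid synthesis begins with Acly, which makes cytosolic acetyl-CoA, and Acaca, which carboxylates it. Acly line means ran from 10.19 ± 0.07 in IP20D-3 to 11.37 ± 0.11 in IP14D-101, and Acaca from 7.60 ± 0.11 in IP14D-1 to 8.60 ± 0.09 in IP14D-101. Fasn, the fatty acid synthase, read 9.21, 9.11 and 9.02 in IP20D-3, 9.79, 9.80 and 9.98 in IP14D-1, 10.06, 10.09 and 10.13 in IP36D-3, 10.32, 10.12 and 10.16 in ESC2, 10.64, 10.51 and 10.80 in IP14D-101 and 10.78, 10.69 and 10.76 in R1. R1 and IP14D-101 overlapped at the top and IP20D-3 lay lowest without overlap. Scd2, a desaturase that makes monounsaturated fatty acids, read 8.97, 8.94 and 8.74 in IP20D-3, 10.03, 9.76 and 9.99 in IP14D-1, 10.21, 10.23 and 10.21 in IP36D-3, 10.76, 10.66 and 10.78 in ESC2, 10.93, 10.88 and 10.89 in IP14D-101 and 10.14, 10.23 and 10.19 in R1. IP20D-3 lay below all other arrays. Its relative Scd1 read 6.84, 6.82 and 6.60 in IP20D-3, 6.01, 6.10 and 6.21 in IP14D-1, 7.46, 7.74 and 7.58 in IP36D-3, 7.45, 7.53 and 7.34 in ESC2, 7.60, 7.71 and 7.72 in IP14D-101 and 6.85, 6.60 and 6.97 in R1. Here IP14D-1, and not IP20D-3, was lowest. Fads2, a desaturase of polyunsaturated fatty acids, read 6.62, 6.19 and 5.96 in IP20D-3, 6.95, 6.80 and 6.91 in IP14D-1, 7.45, 7.49 and 7.47 in IP36D-3, 7.75, 7.63 and 7.71 in ESC2, 8.04, 7.91 and 8.21 in IP14D-101 and 7.25, 7.29 and 7.29 in R1. IP20D-3 was lowest and IP14D-101 highest, with no overlap with other lines. Fads1, which acts after Fads2, was highest in IP14D-101 at 8.29 ± 0.03 against 7.23 ± 0.06 to 7.76 ± 0.06. Elovl6, the elongase, was highest in IP14D-1 (10.23 ± 0.07), where its arrays overlapped those of IP14D-101. A second bright Elovl6 probe set was highest in ESC2 (9.50 ± 0.095), with IP14D-1 at 9.42 ± 0.12, and a dimmer one was highest in IP14D-1 (7.48 ± 0.13).

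**Figure D2:**
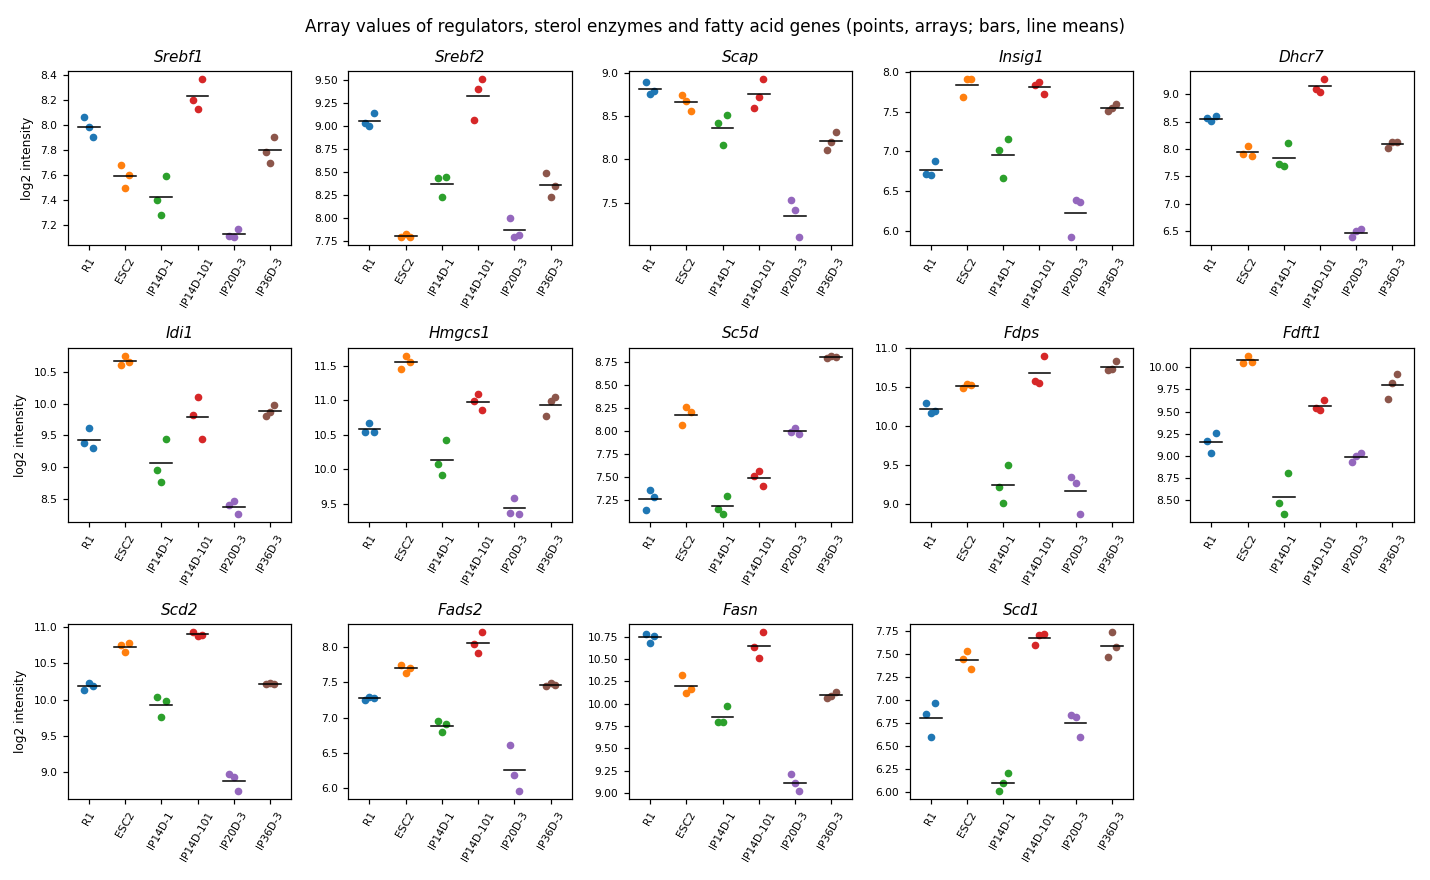
Log2 intensity (vertical axis) of 4 regulators, 6 sterol enzymes and 4 fatty acid genes in each array (points) of the 6 lines (horizontal axis), with bars at line means. The vertical axes do not start at 0 and differ between genes. IP20D-3 has the lowest mean in most panels, with Srebf2, Sc5d, Fdft1 and Scd1 as exceptions.

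The 3 iPS lines with the B6 x D2 label allow a comparison without ESC2 and without a strain difference. The contrasts of IP14D-1 and of IP20D-3 with IP36D-3 share the IP36D-3 arrays, so their values are given side by side. In IP14D-1 against IP36D-3, 6 of 30 members fell (against 1.89% of all genes called lower) and 0 rose (1.5% called higher). The log2 differences were -1.63 for Sc5d, -1.51 for Fdps, -1.49 for Scd1, -1.27 for Hsd17b7, -1.26 for Fdft1 and -1.10 for Msmo1, with limma adjusted p-values from 2.95e-10 to 4.91e-08. All 17 sterol enzymes had a negative difference on the probe sets used, with a median of -0.75 against 0.01 for all genes. Some other bright probe sets went the other way. The second Idi1 probe set read 7.82 in IP14D-1 against 7.41 in IP36D-3. Other bright Hmgcs1 probe sets read 10.415 against 10.21, 10.43 against 10.415 and 8.54 against 9.46 in these lines. The fatty acid genes had a median of -0.26 and the regulators and transporters -0.37. An unadjusted p under 0.05 was found for 26 of 30 members and for 49.5% of all genes. Fibroblast markers were called higher in IP14D-1 in this contrast for 8 of 19.

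In IP20D-3 against IP36D-3, 7 of 30 members fell (1.89% of all genes called lower) and 0 rose (2.36% called higher), with 29 at an unadjusted p under 0.05 (44.5% of all genes). The log2 differences were -1.62 for Dhcr7, -1.60 for Fdps, -1.51 for Idi1, -1.5 for Hmgcs1, -1.34 for Scd2, -1.33 for Insig1 and -1.21 for Fads2, with limma adjusted p-values from 8.11e-10 to 5.64e-07. The median difference was -0.79 for sterol enzymes, -0.67 for regulators and transporters and -0.70 for fatty acid genes, against -0.03 for all genes. Ebp differed by 0.82 and Tm7sf2 by 0.33, neither called. The 3' to 5' actin ratio was 1.24 to 1.31 in these 3 lines. The mean signal of the 18S ribosomal RNA control probe sets differed between them, at 46.9 to 57.5 in IP14D-1, 107.2 to 229.7 in IP36D-3 and 110.8 to 524.8 in IP20D-3, and its part in these differences was not tested. The summed fibroblast signal was highest of all lines in IP14D-1 and lowest in IP20D-3. Acta2, which weighs most in it, was at 10.03 in IP14D-1, 8.87 in ESC2 and 6.14 in IP20D-3. Against ESC2, 2 of 19 markers were called higher in IP14D-1 (2.08% of all genes) and 0 lower (1.36%). Their median difference in that contrast was 0.09. Called lower against ESC2 were 6 of 19 in each of IP20D-3 (3.38% of all genes), IP36D-3 (1.47%) and IP14D-101 (4.06%). R1 had 4 called lower (3.75%), and IP14D-101 also had 1 called higher (4.67%). Averaging all probe sets of a gene left 1 of the 6 calls in IP14D-1 against IP36D-3, that of Scd1, and added Acaca (-1.06). The other 5 were then at -0.79 (Fdps), -0.36 (Fdft1), -0.75 (Msmo1), -0.75 (Hsd17b7) and -0.85 (Sc5d). The second Fdps probe set had line means of only 2.26 to 2.49, and the second bright Fdft1 probe set differed by -0.45 in that contrast. The part of the fibroblast signal in these differences was not tested.

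IP14D-1 and IP20D-3 were then compared directly. Dhcr7 was higher in IP14D-1 by 1.36 ± 0.10 (SE), Scd2 by 1.04 ± 0.08 and Scap by 1.02 ± 0.12, while Ebp was 2.54-fold and Tm7sf2 2.01-fold lower in IP14D-1. These were 3 of 30 higher (2.15% of all genes) and 2 of 30 lower (2.8%), with limma adjusted p-values from 6.83e-10 to 3.53e-05. The median difference was -0.08 for the sterol enzymes, 0.50 for the regulators and transporters and 0.36 for the fatty acid genes, against 0.03 for all genes, and 22 of 30 members had an unadjusted p under 0.05 (52.9% of all genes). Of 19 fibroblast markers, 8 were called higher in IP14D-1 in this contrast, and their part in it was not tested. Of the other 2 Scd2 probe sets, 1 shared the direction (0.63) and 1 did not (-0.04). Averaging all probe sets called Idi1 higher in IP14D-1 (1.23) and lost the calls of Scap (0.54) and Scd2 (0.54). Other bright Hmgcs1 probe sets read 10.415, 10.43 and 8.54 in IP14D-1 against 8.83, 9.05 and 7.85 in IP20D-3. Without replicate 3, Scap (0.82), Scd2 (0.94) and Tm7sf2 (-0.94) fell short of the fold threshold, and without replicate 2 Tm7sf2 (-0.85) did. Repeated quantile normalisation gave 3 higher and 1 lower.

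**Figure D3:**
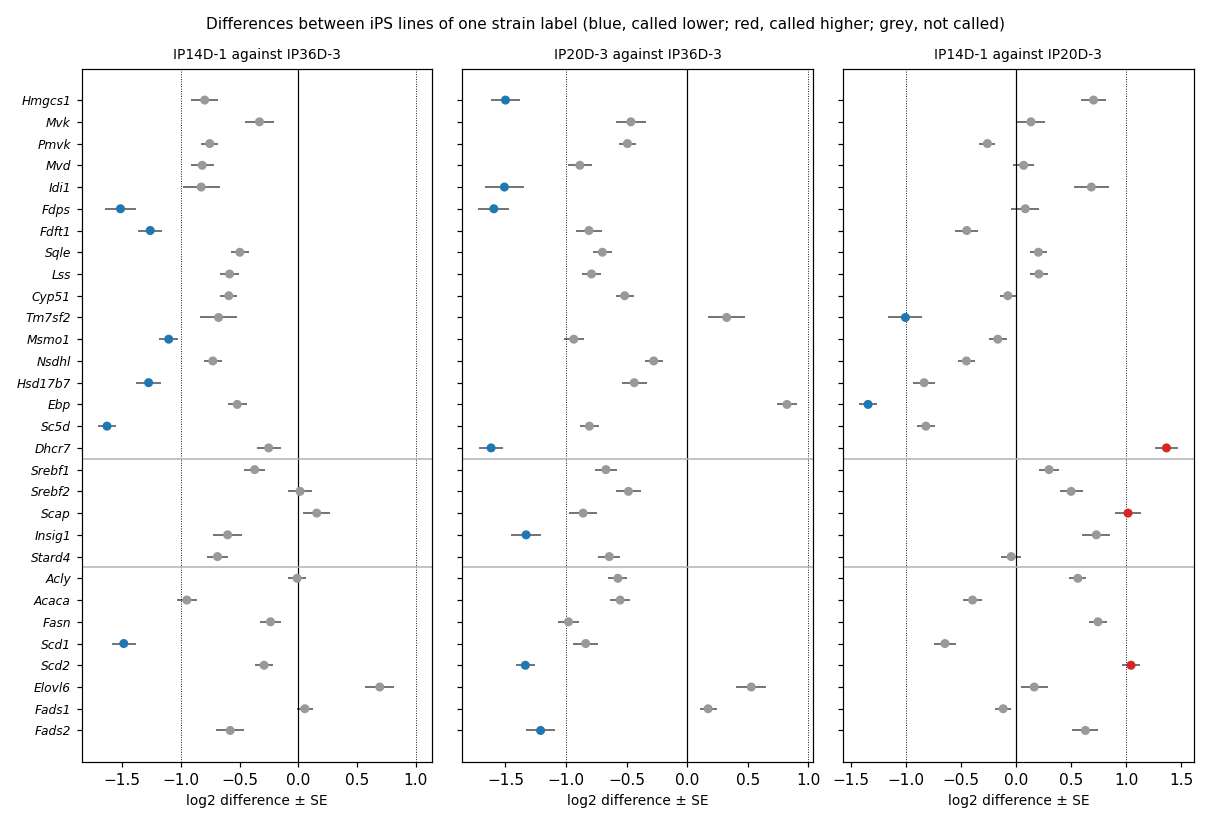
Log2 difference with SE (horizontal axis) of each measured gene (vertical axis) between iPS lines of the B6 x D2 label, with dotted lines at -1 and 1. Both left panels share the IP36D-3 arrays. Calls lower are blue, calls higher red, and the right panel has Dhcr7, Scap and Scd2 in red and Ebp and Tm7sf2 in blue.

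Against ESC2, the ES line of the same strain label, IP20D-3 showed the largest number of calls. In IP20D-3, 11 of 30 members fell (3.38% of all genes called lower) and 1 rose (5.22% called higher), with 27 at an unadjusted p under 0.05 (52.8% of all genes). Idi1 fell by 2.30 (4.93-fold, adjusted p = 1.28e-09 in limma). Hmgcs1 was 4.34-fold and Scd2 3.6-fold lower. The log2 differences were -1.61 for Insig1, -1.48 for Dhcr7, -1.44 for Fads2, -1.35 for Fdps, -1.31 for Scap, -1.26 for Sqle, -1.09 for Fdft1 and -1.09 for Fasn. Ebp rose by 1.25 ± 0.08. The other Hmgcs1 probe sets with a mean of at least 6 differed by -2.60 to -1.94, the other Idi1 probe set by -3.49, those of Scd2 by -1.26 to -0.74 and the second bright one of Fdft1 by -0.92. Sqle, Dhcr7, Ebp, Fasn and Insig1 had no second probe set. Fibroblast markers were called lower in this contrast for 6 of 19, and their part in it was not tested.

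In IP14D-1 against ESC2, 7 of 30 members fell (1.36% of all genes called lower) and 0 rose (2.08% called higher), with 23 at an unadjusted p under 0.05 (46.8% of all genes). The log2 differences were -1.62 for Idi1, -1.54 for Fdft1, -1.42 for Hmgcs1, -1.33 for Scd1, -1.27 for Fdps, -1.25 for Hsd17b7 and -1.06 for Sqle, with limma adjusted p-values from 5e-09 to 4.09e-07. The second bright Fdft1 probe set differed by -0.53. Scap (-0.29 ± 0.12) and Dhcr7 (-0.11 ± 0.10) were not called. Equal array medians gave 11 lower, adding Msmo1, Nsdhl, Sc5d and Stard4, and averaging all probe sets gave 4. Sqle was at -0.97 and no longer called without replicate 2.

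In IP36D-3 against ESC2, limma called 0 of 30 members in either direction (1.91% of all genes called higher and 1.47% lower), with 20 at an unadjusted p under 0.05 (45.8% of all genes). Differences ran both ways, 16 positive and 14 negative, with a median of 0.08 for sterol enzymes against 0.05 for all genes. Mvd differed by 0.70 ± 0.10, Acaca by 0.83 ± 0.08 and Idi1 by -0.79 ± 0.16. The absence of calls depended on the probe set. The second Idi1 probe set read 7.41 in IP36D-3 against 9.535 in ESC2, and averaging all probe sets called Idi1 lower (-1.46). Other bright Hmgcs1 probe sets read 10.21 against 11.43, 10.415 against 11.47 and 9.46 against 9.78 in these lines. All contrasts with ESC2 share its arrays, and ESC2 had the highest 3' to 5' actin ratio. The part of that ratio in these differences was not tested.

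IP14D-101 and R1 carry other strain labels than ESC2. In IP14D-101 against ESC2, 4 of 30 members rose (4.67% of all genes called higher) and 0 fell (4.06% called lower), with 20 at an unadjusted p under 0.05, near the share of all genes (61.1%). Srebf2 rose by 1.52 ± 0.11 (2.87-fold, adjusted p = 1.61e-09 in limma), Dhcr7 by 1.20 ± 0.10, Mvd by 1.18 ± 0.10 and Fads1 by 1.06 ± 0.07. The second Mvd probe set differed by 0.66, under the fold threshold. All 8 fatty acid genes had a positive difference, with a median of 0.40, where the median of all genes was itself at 0.15. Equal array medians moved the median of all genes to -0.03 and gave 2 higher and 1 lower, losing Mvd and Fads1 and adding Idi1 (-1.06). Repeated quantile normalisation gave 3 higher. Endoderm markers were 8 of 12 higher in IP14D-101 against ESC2, and their part in these differences was not tested.

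In R1 against ESC2, Srebf2 rose by 1.25 ± 0.11, 1 of 30 members called higher (4.38% of all genes). Idi1 (-1.24 ± 0.16) and Insig1 (-1.07 ± 0.13) fell, 2 of 30 called lower (3.75%), and 27 had an unadjusted p under 0.05 (60.1% of all genes). The sterol enzymes had a median of -0.37 while the median of all genes was 0.15. Equal array medians, which put that median at -0.04, gave 1 higher and 5 lower, adding Hmgcs1 (-1.16), Fdft1 (-1.11) and Sc5d (-1.11). Without replicate 2, Insig1 (-0.99) was not called. The second Srebf2 probe set rose by 1.73 in R1 and by 2.03 in IP14D-101. R1 and IP14D-101 were the highest 2 lines for 8 of 30 members, among them Srebf2, Srebf1, Scap, Dhcr7 and Fasn, but 27.7% of all genes had this order, so the count is near the background. Strain and line cannot be told apart in these contrasts. The mean 18S control signal was 168.9 to 192.8 in ESC2, 33.8 to 35.3 in R1 and 24.8 to 29.4 in IP14D-101. Its part in these contrasts was not tested.

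**Figure D4:**
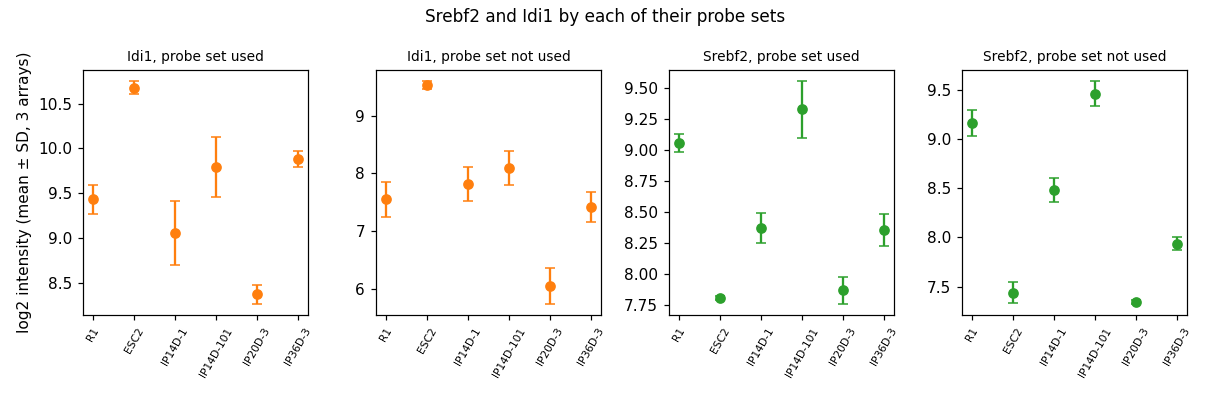
Log2 intensity (vertical axis, mean and SD of 3 arrays) of both probe sets of Idi1 and of Srebf2 in the 6 lines (horizontal axis), with vertical axes that do not start at 0. Both Srebf2 probe sets are highest in R1 and IP14D-101, and both Idi1 probe sets are highest in ESC2 and lowest in IP20D-3.

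IP14D-101 and R1 differed from each other mainly in the same direction. Insig1 was higher in IP14D-101 by 1.04 ± 0.13, the 1 call among 30 members (0.698% of all genes called higher and 1.82% lower). It was at 0.98 and not called without replicate 2. Of the 30 members, 26 had a positive difference and 25 an unadjusted p under 0.05 (33.5% of all genes). The medians were 0.34 for sterol enzymes and 0.55 for fatty acid genes against 0.005 for all genes. Endoderm markers were called higher in IP14D-101 for 8 of 12 in this contrast, with a median difference of 1.83, and their part in it was not tested. Scd1 (6.81 ± 0.19 in R1 and 7.68 ± 0.06 in IP14D-101) and Fads2 (7.28 ± 0.02 and 8.05 ± 0.15) did not overlap between the lines but stayed under the fold threshold.

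Between the cell types, with 4 iPS and 2 ES line means, limma called 0 of 30 members and 0% of all genes in either direction. Of the members only Sqle, and of all 18193 genes 700, had an unadjusted p under 0.05 (Sqle at a difference of -0.70 ± 0.28, adjusted p = 1). The sterol enzymes had a median of -0.21 and 14 of 17 negative differences. The iPS lines spanned both extremes, with Idi1 from 8.38 in IP20D-3 to 9.89 in IP36D-3 against 9.43 and 10.68 in the ES lines R1 and ESC2. The largest member difference was -0.78 (Idi1), so no member reached the fold threshold. Fixed line means over the 18 arrays keep these differences and so could not give a call.

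Other genes of lipid supply were drawn from 3 lists with 32 of 38 genes measured. In at least 1 of the 9 line contrasts, 14 of the 32 were called, against 21.2% of all genes. Among 9 genes of uptake, storage and efflux, Scarb1, a receptor for high-density lipoprotein, was 8.61 ± 0.03 in IP20D-3 and 6.50 ± 0.16 in ESC2, and it was called higher in IP20D-3 against ESC2, IP14D-1 and IP36D-3. Npc2, which carries cholesterol out of lysosomes, rose by 1.35 ± 0.09 in IP20D-3 against ESC2. Abca1, a cholesterol exporter, was 7.94 ± 0.15 in IP14D-1 against 6.33 ± 0.20 to 6.88 ± 0.11 in the other lines, and was called higher there against ESC2, IP20D-3 and IP36D-3. Scarb1 was also called higher against ESC2 in IP14D-101 (1.503 ± 0.09) and R1 (1.18 ± 0.09), and Abca1 was low in IP20D-3 (6.34 ± 0.21).

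Of 9 further sterol and isoprenoid genes, Erlin1, a protein of the complex that degrades sterol-synthesis proteins, rose by 1.10 ± 0.08 in IP20D-3 against ESC2. Ggps1, which makes geranylgeranyl diphosphate, fell by 1.51 in R1 against ESC2 (2.85-fold). Among 14 fatty acid supply genes, 4 fell in IP20D-3 against ESC2 (3.38% of all genes called lower) and 0 rose (5.22% called higher). The log2 differences were -2.52 for Acsl4, -1.29 for Acsl3, -1.19 for Fabp5 and -1.17 for Elovl1, an elongase. In IP14D-1 against ESC2, 2 fell (1.36% called lower) and 0 rose (2.08% called higher), with Acsl4 at -1.39 and Elovl1 at -1.32. The 14 genes had a median of -0.007 in IP20D-3 and -0.06 in IP14D-1, against 0.009 and 0.06 for all genes. The acyl-CoA synthetase Acsl4 was highest in ESC2 at 9.39 ± 0.06 and was called lower in all 5 contrasts with it. Acsl3, a related synthetase, was 7.41 ± 0.15 in IP20D-3 and 8.94 ± 0.12 in IP36D-3. The fatty acid carrier Fabp5 was 9.12 ± 0.09 in IP20D-3, below the other lines (10.11 ± 0.11 to 11.35 ± 0.02).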

How the data were processed

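The deposited values are 1 linear intensity per probe set and array, summarised by the authors with the RMA method of Bioconductor, per the labels. RMA by default equalises quantiles across arrays, which would remove a global shift between lines. Of 45101 probe sets, 64 control, 932 multi-symbol and 9160 unnamed probe sets were left out, and each of 18193 genes was represented by the probe set with the highest mean log2. Array medians were 29.2 to 30.5, and 3 arrays per line limit the precision. Intensities were taken to log2 with no offset. Line contrasts came from 1 limma 3.58.1 model (R 4.3.3) of 6 line means over 18 arrays (12 residual degrees of freedom), and cell types were compared on the 6 line means. Error bars are SD over arrays or limma's SE. Plots were drawn with matplotlib 3.10.9. The fit was tested on simulated data. The members, lists and contrasts were chosen with earlier results of these data known. Array values are given for Srebf1, Srebf2, Scap, Insig1 and the 6 sterol enzymes and 4 fatty acid genes with the widest range of line means and a highest line mean of at least 6. Of each other pathway list, up to 3 called genes with the widest range are named, and Elovl1 was named beyond that rule after its values were seen. The lists were uptake, storage and efflux, other sterol and isoprenoid genes, other fatty acid supply genes, and pluripotency, fibroblast and endoderm markers. Replicate numbers are shared between lines, but deviations of same-numbered arrays correlated at -0.25 to 0.26 (median 0.04), so the numbers were not used as pairs. The alternatives covered scaling, offset, a filter on dim genes, probe set choice, arrays in the fit, array weights, a variance trend, a replicate block, leaving out each replicate and no minimum fold.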

Additional observations from a re-analysis of the deposited data

Results flagged for a closer look

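The contrasts of IP14D-1 and of IP20D-3 with any other line differ by the direct contrast of the pair. In it 5 members passed both the adjusted p threshold in limma and the log2 threshold of 1. Others, such as Sc5d (-0.82), passed on the adjusted p alone. Dhcr7 differed by 1.365 (IP14D-1 minus IP20D-3), higher in IP14D-1 in 3 of 3 arrays against every IP20D-3 array. Ebp differed by -1.345, Scd2 by 1.043, Scap by 1.016 and Tm7sf2 by -1.006. Tm7sf2, Scap and Scd2 lay close to the fold threshold and lost their call under some alternatives. No member of the 30 had an iPS line mean far enough from the other 3 to pass Dixon's test over 4 lines, which flags about 1 in 20 groups by chance.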

How the results depend on the processing

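Of 45 calls of a member in a line contrast, 26 kept their direction and call under every alternative with a value, and 0 reversed. Averaging all probe sets ended 15 calls, adding 16 to the intensity 5, leaving out replicate 2 ended 4 and replicate 3 ended 3, quantile normalisation 3, and equal array medians and array weights 2 each. A further 21 combinations of gene, contrast and alternative were called only under that alternative. Without a minimum fold, limma called 21 of 30 members in IP14D-1 against ESC2, 26 in IP20D-3, 16 in IP36D-3, 18 in IP14D-101 and 26 in R1 against ESC2, 18 in IP14D-101 against R1, 22 in IP14D-1 against IP20D-3, 25 in IP14D-1 against IP36D-3 and 28 in IP20D-3 against IP36D-3, and 31 of the 32 pathway genes in place of 14. The share of all genes called without a minimum fold is not given here, so these counts cannot be set against a background. An unadjusted p under 0.05 was found for 33.5% to 61.1% of all genes in these contrasts. Equal medians gave 11 in place of 7 in IP14D-1 against ESC2 and 6 in place of 3 in R1 against ESC2. Averaging probe sets gave 4 in place of 7 in IP14D-1 against ESC2, 1 in place of 0 in IP36D-3 against ESC2, 2 in place of 6 in IP14D-1 against IP36D-3, and 9 pathway genes. Adding 16 gave 0 in place of 1 in IP14D-101 against R1 and 3 in place of 5 in IP14D-1 against IP20D-3, where array weights also gave 3. The cause was not tested. Leaving out 1 replicate gave 0 to 1 in IP14D-101 against R1 and 2 to 5 in IP14D-1 against IP20D-3. With the replicate block, the counts were those without it in all 9 line contrasts (7 in IP14D-1 and 12 in IP20D-3 against ESC2). Levels near the array medians, such as Hsd17b7 in IP14D-1, were not shown to lie above background.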
